A study of Mus musculus with 4 samples.

Results

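Snord55, Snord43 and Snord49a are small nucleolar RNA (snoRNA) genes, and they are the 3 genes with the largest shares of the tumour counts, out of 47069 gene IDs in the deposited table. They were chosen by those tumour counts, so their tumour levels and their differences from exosomes are given as descriptions, without tests. Lewis lung carcinoma, an established mouse lung carcinoma cell line, had been grown under the skin of C57BL/6 mice for 3 weeks in both groups. RNA was taken from tumour-derived exosomes, small vesicles precipitated from serum-free medium after pieces of primary tumour had been cultured for 12 h (2 libraries), and, for comparison, from primary tumour (2 libraries). The series asked how gene signatures differ between the exosomes and the tumour; no genotype, further treatment, mouse age or pooling of animals is given in the labels, and the tumour also holds host cells.

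Box C/D snoRNAs guide the methylation of ribosomal RNA. Each carries a box C and a box D motif that fold together and bind a core of proteins, among them the methyltransferase fibrillarin, while the bases next to box D, or next to an internal copy of it, pair with the target RNA. Most vertebrate box C/D snoRNAs lie in introns of genes for ribosomal proteins and other factors of translation, and are trimmed out of the spliced and debranched intron. In human cells the counterparts of Snord55 and Snord49a guide sites in the large-subunit ribosomal RNA, and that of Snord43 a site in the small-subunit ribosomal RNA.

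The sequences of Snord43 and Snord49a are shown because their length and boxes bear on how the counts turn into levels, and Snord49b because it lies in the same host gene as Snord49a and shares sequence with it. They are the GENCODE M21 transcripts (build GRCm38), 5′ to 3′, with DNA letters. Capitals mark each TGATGA, the core of box C, and each CTGA, box D.
Snord43: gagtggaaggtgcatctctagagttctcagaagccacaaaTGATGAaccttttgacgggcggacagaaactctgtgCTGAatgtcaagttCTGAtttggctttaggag
Snord49a: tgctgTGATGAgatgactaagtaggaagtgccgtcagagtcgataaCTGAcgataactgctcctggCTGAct
Snord49b: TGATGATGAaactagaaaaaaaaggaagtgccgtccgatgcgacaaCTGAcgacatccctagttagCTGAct

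Snord43 (ENSMUSG00000105167) lies at chr15:80082847-80082954 on the minus strand, in intron 1 of Rpl3, which encodes a protein of the large ribosomal subunit. Snord49a (ENSMUSG00000065734) lies at chr11:62603450-62603521 on the plus strand, in intron 2 of 2410006H16Rik, a long noncoding RNA gene. Snord49b lies at chr11:62603079-62603150 on the plus strand, in intron 1 of the same gene. Each is on the strand of its host.

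The annotated lengths are 79 bases for Snord55 (ENSMUSG00000092680), 108 for Snord43 and 72 for Snord49a. GENCODE gives Snord43 the biotype miRNA, whereas RefSeq lists it as a snoRNA, with a length of 48 bases. From the first TGATGA to the last CTGA, Snord43 spans 54 bases, fewer than the 66 of Snord55 and the 65 of Snord49a, so the 108-base annotation reaches well beyond the boxes. Among other genes with a Snord symbol and a count, this span had a median of 72 bases over the 41 that held both motifs. Snord55 has a GC content of 63.3%, above the upper quartile of 49.7% of 55 other Snord genes with a count, which ranged between 29.6% and 65.1%. Snord43 has 46.3% and Snord49a 48.6%, both inside the quartiles.

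TGATGA followed by CTGA on the transcript strand occurs in all 3 snoRNAs, in 41 of 55 other Snord genes with a count (74.5%), and in 248 of 2618 annotated transcripts of 72 to 108 bases outside the Snord genes (9.47%). The longest run that Snord43 and Snord49a share is the 6 bases of TGATGA itself. Pairwise identity was 50.4% for Snord55 and Snord43, 52.9% for Snord55 and Snord49a and 43.6% for Snord43 and Snord49a. Snord49a and Snord49b share a 13-base run, AGGAAGTGCCGTC, at position 23 of both, counted from 1 at the 5′ end, and are identical in 54 of 78 alignment columns (69.2%). No other annotated transcript matched any of the 3 at an e-value of 0.001, and no gene was at least 90% identical over 80% of the longer sequence, so no annotated near copy was found that could share their reads.

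The last CTGA lies 278 bases before the next host exon in Snord43 and 77 in Snord49a. In other Snord genes with a count that lie in an intron, this distance had a median of 118 bases, with quartiles at 79 and 1407 (n = 51). Snord43 thus lies inside the quartiles and Snord49a just below the lower one.

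**Figure D1:**
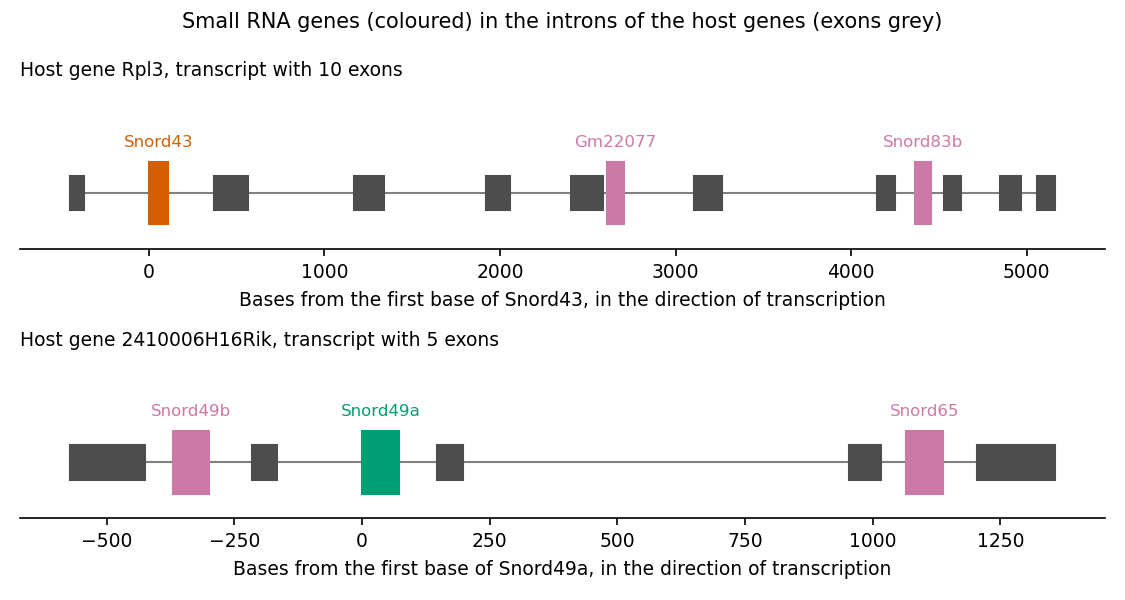
Host genes of Snord43 and Snord49a drawn to scale in the direction of transcription, with distance in bases from the first base of each snoRNA on the x axis, host exons in grey, these snoRNAs in their own colours and the other annotated small RNA genes of the drawn transcript in pink. Snord43 lies in intron 1 and Snord49a in intron 2 of its host.

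The exosome libraries held 305751 and 217201 counts and the tumour libraries 14543691 and 10849811, so that the tumour libraries were 48.6 times as deep in sum. Exosome values of the 3 snoRNAs therefore rest on between 140 and 410 counts each, and a library count of 0 allows up to 3 counts, or 9.81 and 13.8 CPM (counts scaled to the library total) in exosomes against 0.206 and 0.277 CPM in tumour. The libraries are sparse in mRNA, which limits a check of the tissue. Summed over 6 epithelial and carcinoma markers there were 1 and 1 counts in exosomes against 13 and 4 in tumour, with Epcam, Krt19, Cdh1 and Muc1 at 0 everywhere. The 10 leukocyte markers held 17 and 22 counts in exosomes against 128 and 50 in tumour, with Cd3e and Cd79a at 0, and the 8 fibroblast and endothelial markers 27 and 26 against 151 and 88, led by Col3a1. The 4 globin genes that mark erythroid cells held 82 and 102 counts in exosomes against 1642 and 873 in tumour. As shares of the library these 4 marker sums were larger in both exosome libraries than in either tumour library. Larger exosome shares were not particular to these markers. In the edgeR fit scaled to library totals, described below, 63.8% of all 1442 genes tested were called higher in exosomes. The part of these markers in the results was not tested.

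Snord55 had 398 and 304 counts in exosomes, against 2892133 and 2189058 in tumour. As a share of all gene counts this was 0.130% (exact Clopper-Pearson 95% interval 0.118% to 0.144%) and 0.140% (0.125% to 0.157%) in exosomes, against 19.9% and 20.2% in tumour. The exosome intervals overlap, and the groups are far apart. The mean share was 0.135% ± 0.00692 in exosomes and 20.0% ± 0.205 in tumour (SD, n = 2 each), 148-fold lower in exosomes. In bulk RNA, fewer cells or vesicles that hold an RNA and less of it in each cannot be told apart.

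Snord43 had 410 and 193 counts in exosomes, against 1773504 and 1274884 in tumour. These were 0.134% (0.121% to 0.148%) and 0.0889% (0.0768% to 0.102%) of exosome counts, against 12.2% and 11.8% of tumour counts. The 2 exosome libraries differed by more than counting error, since their intervals do not overlap. The mean share was 0.111% ± 0.0320 in exosomes and 12.0% ± 0.314 in tumour (SD, n = 2 each), 107-fold lower in exosomes, the smallest of the 3 differences.

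Snord49a had 263 and 140 counts in exosomes, against 1438088 and 1245757 in tumour. These were 0.0860% (0.0759% to 0.0971%) and 0.0645% (0.0542% to 0.0761%) of exosome counts, against 9.89% and 11.5% of tumour counts. The exosome intervals just overlap, and the spread between the tumour libraries was the widest of the 3 snoRNAs. The mean share was 0.0752% ± 0.0152 in exosomes and 10.7% ± 1.13 in tumour (SD, n = 2 each), 142-fold lower in exosomes.

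For each of the 3, every exosome share lay far below every tumour share. The lowest tumour share was 142 times the highest exosome share for Snord55, 87.6 times for Snord43 and 115 times for Snord49a. Of all 14421 genes with a count, 24.2% had both exosome shares below both tumour shares. Since the tumour counts chose the 3 genes, nothing is read from this comparison.

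**Figure D2:**
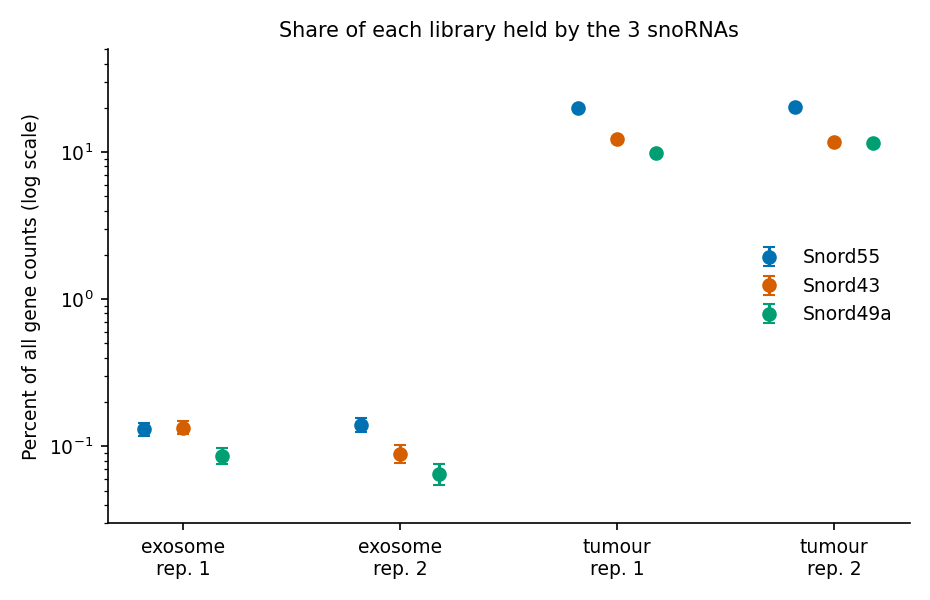
Percent of all gene counts held by Snord55, Snord43 and Snord49a in each exosome and tumour library, on a log scale, with bars for exact 95% intervals (counting error only). Exosome shares lie between 0.0645% and 0.140%, and tumour shares between 9.89% and 20.2%.

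The share in exosomes depends on what else is in the library, so the differences were also fitted with edgeR under TMM scaling, which assumes that most genes do not differ. There, the fitted log2 difference (exosomes minus tumour) was -10.01 for Snord55, -9.50 for Snord43 and -9.92 for Snord49a. Scaled to library totals it was -7.21, -6.74 and -7.14. The shift between the scalings was general, as the median log2 difference over the 1442 genes tested was 0.02 under TMM and 2.75 under library totals. Relative to that median, Snord55 stood at -10.03 under TMM and -9.97 under library totals, Snord43 at -9.52 and -9.49, and Snord49a at -9.94 and -9.90. Both fits held the same genes and differed in library scaling alone, so this near agreement follows from the method. With other filters the value for Snord55 was -9.05 (at least 10 counts in 2 libraries) and -9.33 (no filter). With limma on log2(FPKM + 1) and log2(FPKM + 10), described below, it was -8.68 and -7.60. The median itself was -1.86 over the 14421 genes of the fit with no filter. The direction was the same under TMM and library totals.

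Per length, the order of the 3 was not the same in all libraries. The deposited FPKM (counts scaled to annotated length and library total) of Snord55 came to 16477 and 17717 in exosomes, against 2517193 and 2553924 in tumour, the highest of all genes in tumour. Snord49a had 11947 and 8952 FPKM in exosomes, against 1373341 and 1594699 in tumour. Snord43 had 12416 and 8227 FPKM in exosomes, against 1129104 and 1087990 in tumour. In tumour both libraries ranked Snord49a above Snord43. In exosomes the first library had Snord43 above Snord49a and the second Snord49a above Snord43, so that the order of these neighbours was not settled there.

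The lengths used matter for this order. The deposited FPKM divide by the annotated length, 108 bases for Snord43. When the counts were divided instead by the span from the first TGATGA to the last CTGA, a calculation chosen after the values had been seen, Snord43 averaged 20644 ± 5924 in exosomes and 2217093 ± 58144 in tumour, in the unit of FPKM. Snord49a averaged 11575 ± 2346 in exosomes and 1643837 ± 173380 in tumour on that scale (SD, n = 2 each). Snord43 then lay above Snord49a in both groups, while Snord55 averaged 20465 ± 1049 in exosomes, level with Snord43, and 3034987 ± 31089 in tumour, above both.

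By count, Snord55 ranked 88 and 87 among all genes of the exosome libraries, Snord43 86 and 96, and Snord49a 94 and 98, against ranks 1, 2 and 3 in both tumour libraries. Among the 99 genes with a Snord symbol, the 3 nonetheless held ranks 1 to 3 by FPKM in all 4 libraries. They were thus the leading genes with a Snord symbol in the exosome libraries too, a group of values that the choice by tumour counts had not used. Among all snoRNA genes they did not hold these ranks in exosomes. Snora68, of another snoRNA class, had 14506 and 9735 FPKM there, above Snord43 and Snord49a and below Snord55 in both libraries.

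Together the 3 snoRNAs had 1071 and 637 counts in exosomes, or 0.350% and 0.293%, against 6103725 and 4709699 counts in tumour, or 42.0% and 43.4%. The mean was 0.322% ± 0.0403 in exosomes and 42.7% ± 1.02 in tumour (SD, n = 2 each). The make-up of the sum differed far less than its size. Snord55 held 37.2% (34.3% to 40.1%) and 47.7% (43.8% to 51.7%) of the sum in exosomes, against 47.4% and 46.5% in tumour. Snord43 held 38.3% (35.4% to 41.3%) and 30.3% (26.7% to 34.0%) in exosomes, against 29.1% and 27.1% in tumour. Snord49a held 24.6% (22.0% to 27.2%) and 22.0% (18.8% to 25.4%) in exosomes, against 23.6% and 26.5% in tumour. The second exosome library lay near the tumour libraries for Snord55 and Snord43, and the first stood apart from all other libraries by more Snord43 and less Snord55.

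**Figure D3:**
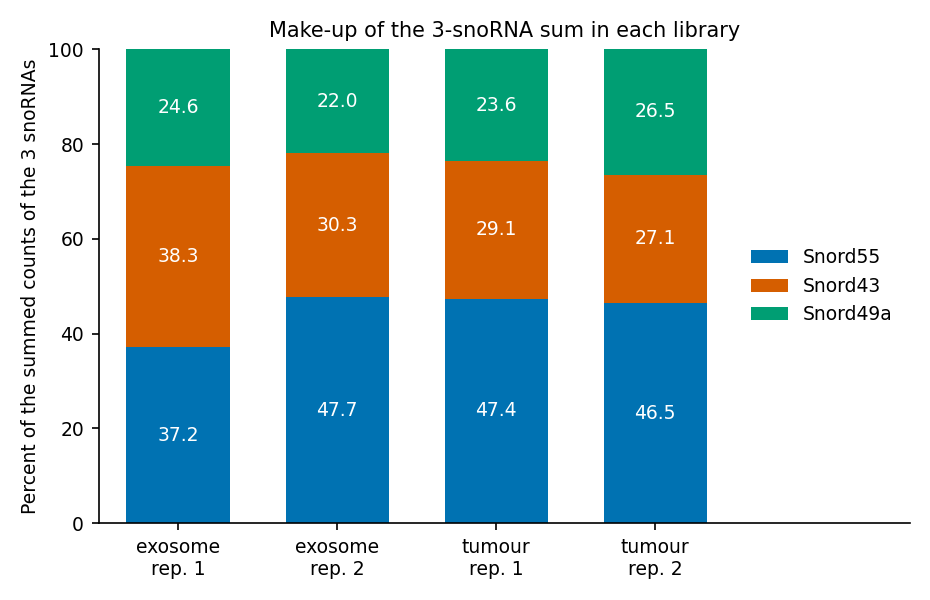
Percent of the summed counts of the 3 snoRNAs held by each of them in the 2 exosome and the 2 tumour libraries, as stacked bars that start at 0. Exosome library 1 has 37.2% Snord55 and 38.3% Snord43, whereas Snord55 holds between 46.5% and 47.7% in the other libraries.

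The hosts of Snord43 and Snord49a were scarce in every library. Rpl3 had 7 and 5 counts in exosomes against 110 and 74 in tumour, and 2410006H16Rik had 0 and 1 counts in exosomes against 3 and 1 in tumour. Each Rpl3 count went with 58.6 and 38.6 counts of Snord43 in exosomes, against 16123 and 17228 in tumour. These ratios compare counts, not levels per length. Snord43 exceeded its host in all libraries, and by more in both tumour libraries than in either exosome library.

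In the edgeR quasi-likelihood test Rpl3 passed in opposite directions, lower in exosomes under TMM (log2 difference -1.10, adjusted p = 0.0308) and higher under library totals (1.67, adjusted p = 0.00615), and its call under TMM was lost whichever library was left out. No direction can therefore be given for Rpl3. 2410006H16Rik had too few counts to be tested.

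The other counted snoRNAs of these hosts were also low in exosomes. Snord83b, in Rpl3, had 117 and 84 counts in exosomes, against 904726 and 644729 in tumour, a log2 difference of -10.09 under TMM (adjusted p = 8.32e-08). It fell in exosomes, and the 2 groups were far apart. In 2410006H16Rik, Snord49b had 60 and 32 counts in exosomes, against 243940 and 163093 in tumour, with a difference of -9.29 (adjusted p = 1.26e-07). Snord65 had 15 and 3 counts in exosomes, against 54970 and 36004 in tumour, with a difference of -9.47 (adjusted p = 3.37e-07). Under library totals the 3 co-hosted snoRNAs kept their direction, at -7.30 for Snord83b, -6.52 for Snord49b and -6.71 for Snord65. The remaining annotated small RNA genes of these hosts had almost no counts. In Rpl3, Gm22077 had 0 counts in all libraries, and Gm24204 had 0 and 0 counts in exosomes against 2 and 0 in tumour.

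The proportions within a host differed far less than the levels. Snord43 had 3.50 and 2.30 counts per count of Snord83b in exosomes, against 1.96 and 1.98 in tumour. Snord83b made up 22.2% (18.7% to 26.0%) and 30.3% (25.0% to 36.1%) of that pair in exosomes, against 33.8% and 33.6% in tumour, so that the first exosome library alone lay beyond counting error. Snord49a had 4.38 and 4.38 counts per count of Snord49b in exosomes, against 5.90 and 7.64 in tumour. Snord49b made up 18.6% (14.5% to 23.3%) and 18.6% (13.1% to 25.2%) of its pair in exosomes, against 14.5% and 11.6% in tumour, so that the first tumour library lay inside both exosome intervals and the second below both. With 2 libraries against 2, an exact permutation test cannot go below p = 0.33 (two-sided), so none of these ratios was tested.

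**Figure D4:**
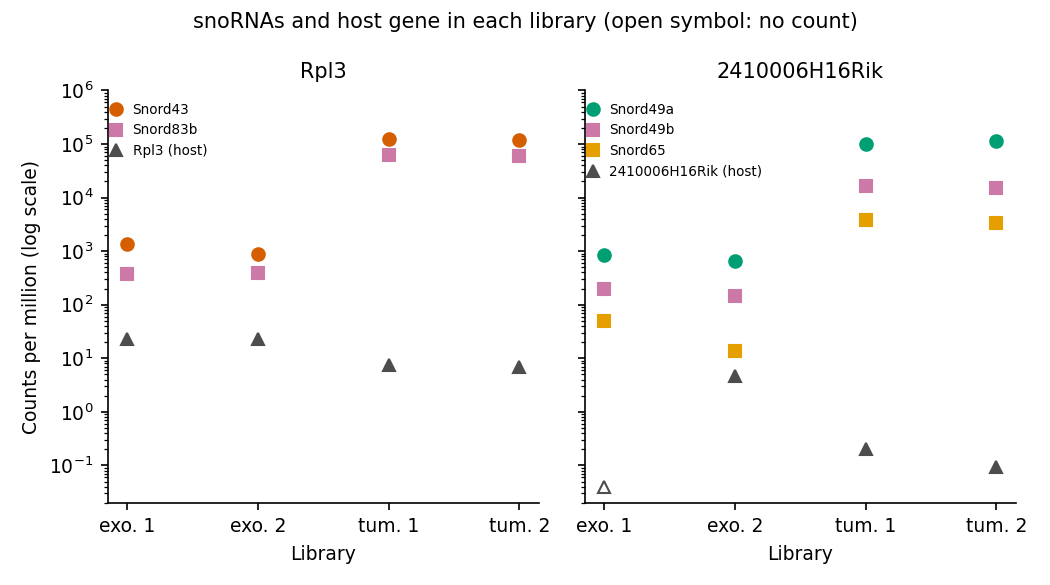
CPM (log scale) of Snord43 and Snord49a, the other counted snoRNAs of the same host and the host gene, in exosome libraries (exo.) and tumour libraries (tum.), with 1 panel per host. Fitted with library totals, the log2 differences of the 5 snoRNAs lie between -7.30 and -6.52, whereas the hosts are low in all libraries.

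In how far they lay below tumour, the 3 snoRNAs fell within the range of other box C/D snoRNAs. Of 96 other genes with a Snord symbol, 39 had a count in exosomes and 55 in tumour, and 44 were tested. All 44 tested were lower in exosomes and 0 were higher under TMM, where 22.1% of all genes tested were lower and 16.0% higher. Their median log2 difference was -9.85, against 0.02 over all genes tested. Under library totals 42 were lower and 1, Snord118, was higher, where 11.5% of all genes were lower and 63.8% higher, with a median of -7.11. A gene high in tumour alone could pass the count filter, and 1 count in each exosome library could also let a gene through. These counts therefore speak of the tested genes and not of all 96, and the shares over all genes tested carry the same limit. Some of the 44 had no exosome count, such as Snord98, with 5797 and 3986 counts in tumour. Such genes could only come out lower, so their calls add nothing. The 17 with at least 10 exosome counts in sum had log2 differences of mean share between -8.90 and 0.92, with a median of -6.93.

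The 96 other genes held 0.189% and 0.185% of exosome counts, against 21.4% and 20.9% of tumour counts, with means of 0.187% ± 0.00313 and 21.1% ± 0.381 (SD, n = 2 each), 113-fold lower in exosomes. The 3 snoRNAs were in sum 133-fold lower. Of the counts of all genes with a Snord symbol they made up 64.9% (62.6% to 67.3%) and 61.4% (58.3% to 64.3%) in exosomes, against 66.2% and 67.5% in tumour. The interval of the first exosome library holds the first tumour value and lies just below the second, and the second exosome library was lower than both by more than counting error. Unnamed snoRNA genes, such as Gm24494, are not in that sum, and whether they are box C/D snoRNAs was not read, so these are not shares of all box C/D counts. Against all genes of the snoRNA class, which adds H/ACA and unnamed snoRNA genes, the 3 made up 33.1% and 29.9% in exosomes, against 44.9% and 46.0% in tumour, a lower share in both exosome libraries.

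Among 48 box C/D genes with at least 10 counts in both tumour libraries, the exosome share of Snord43 was 0.931% of its tumour share, that of Snord49a 0.704% and that of Snord55 0.674%. These were ranks 17, 23 and 25 from the highest ratio, in the middle of the family. The other 45 had a median of 0.652%, and 6 of them had no exosome count. Snord118 (U8), which in vertebrates is needed for processing of the large-subunit ribosomal RNA, stood highest at 189%. It had 105 and 92 counts in exosomes, against 3425 and 1839 in tumour. Its difference was -1.88 under TMM (edgeR adjusted p = 7.43e-05) and 0.91 under library totals (adjusted p = 0.00145), so its direction flips with the scaling.

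**Figure D5:**
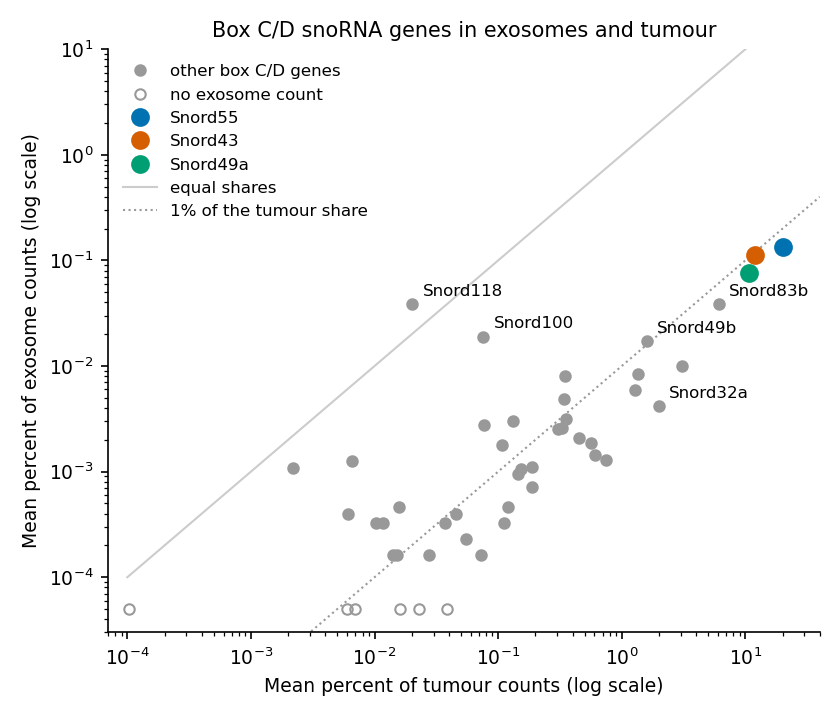
Mean percent of exosome counts (y axis) against mean percent of tumour counts (x axis), both on log scales. Each point is a gene with a Snord symbol and at least 10 counts in both tumour libraries. Open circles, drawn at the foot of the plot, had no exosome count. Snord55, Snord43 and Snord49a lie at the top right, near the line of 1% of the tumour share, with most of the family spread along it.

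The values of other family members also moved with the scaling. Snord100 had 58 and 41 counts in exosomes, against 11422 and 7918 in tumour, with a log2 difference of -4.78 under TMM (edgeR adjusted p = 2.67e-07) and -2.0 under library totals. Snord110 had 27 and 24 counts in exosomes, against 435223 and 342051 in tumour, with a difference of -11.08 under TMM and -8.29 under library totals. Snord32a had 10 and 11 counts in exosomes, against 294958 and 210967 in tumour, with a difference of -11.72 under TMM and -8.94 under library totals. Under both scalings Snord100 was less far below its tumour level than the 3 snoRNAs, and Snord110 and Snord32a further below; these gaps between genes were not tested. The gene just outside the choice by tumour counts was Snord83b, with 6.22% and 5.94% of tumour counts, followed by Gm24494, with 3.85% and 3.74%; the last gene inside it was Snord49a.

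Other classes of guide RNA were also measured. Box H/ACA snoRNAs guide pseudouridylation. Of 42 listed, 14 were tested, of which 11 were lower and 1 higher in exosomes under TMM, with a median of -3.87, where 22.1% of all genes tested were lower and 16.0% higher. Under library totals 4 were lower and 2 higher, with a median of -1.14, where 11.5% of all genes were lower and 63.8% higher. Here too a gene high in tumour alone, or with 1 count in each exosome library, could pass the count filter. One with no exosome count could only come out lower, so the counts and the shares over all genes speak of the tested genes. Snora28 had 11 and 7 counts in exosomes, against 21982 and 15162 in tumour, with differences of -8.18 under TMM and -5.40 under library totals. Snora68 had 581 and 277 counts in exosomes, against 31536 and 23420 in tumour, and its difference of -3.21 under TMM was -0.44 and no longer called under library totals (edgeR adjusted p = 0.0649). Snora57, with 235 and 240 counts in exosomes against 879 and 656 in tumour, was the 1 higher gene under TMM (1.14, edgeR adjusted p = 3.57e-04). Under library totals its difference was 3.95 (edgeR adjusted p = 5.68e-19). Its sign changed in 1 alternative, with a difference of -0.048 and no call when no count filter was used.

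Small Cajal body RNAs guide the modification of spliceosomal RNAs. Of 9 listed, 8 were tested, with 5 lower and 0 higher under TMM, against 22.1% lower and 16.0% higher over all genes tested. Under library totals 3 were lower and 3 higher, against 11.5% lower and 63.8% higher over all genes. The median was -3.16 under TMM and -0.40 under library totals. Scarna17 had 9 and 14 counts in exosomes, against 2076 and 1563 in tumour, a difference of -4.48 under TMM and -1.68 under library totals. Its call was lost with limma on log2(FPKM + 1) and log2(FPKM + 10) (adjusted p = 0.0703 and 0.0788). Scarna3a had 6 and 5 counts in exosomes, against 310 and 218 in tumour, and its difference was -2.75 under TMM and 0.024 under library totals. Scarna2 had no exosome count, against 297 and 282 counts in tumour, so it passed the count filter through tumour alone and its call adds nothing.

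The messenger RNAs of the machinery were too scarce to follow. The 4 box C/D core proteins (Fbl, Nop56, Nop58 and Snu13) had 2 and 3 counts in sum in exosomes, against 48 and 37 in tumour. Of these, Nop56 (log2 difference -1.80, edgeR adjusted p = 0.125) and Nop58 (-0.55, adjusted p = 0.749) were tested, and neither passed. Nop56 had 1 and 1 counts in exosomes against 24 and 26 in tumour, and Nop58 had 1 and 1 against 14 and 7. Both needed these exosome counts to pass the count filter, so nothing is read from the lack of a call. The 9 assembly factors had 10 and 3 counts in exosomes, against 24 and 17 in tumour. Nolc1, a nucleolar and Cajal body protein that binds snoRNA particles, was the 1 tested, with 5 and 2 counts in exosomes against 7 and 3 in tumour. It passed the count filter through the exosome libraries alone, so no call was read from it, and with no count filter its difference was 1.11 (edgeR adjusted p = 0.683). The 6 genes of intronic snoRNA release and trimming had 2 and 2 counts in exosomes, against 22 and 14 in tumour, and the 4 box H/ACA core protein genes 2 and 0, against 8 and 7; none was tested.

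Genes with the most similar profile were sought among 204 genes with at least 10 counts in every library, by the distance between log2(CPM + 1) values centred on each gene's mean over the 4 libraries. Nearest to the mean of the 3 snoRNAs was Gm23301, at a distance of 0.12, followed by Gm22980 at 0.31 and Snord73a at 0.33. All 3 of these are annotated as snoRNA genes. Gm23301 had 87 and 56 counts in exosomes, against 535319 and 405372 in tumour, Gm22980 had 32 and 21 against 241717 and 170484, and Snord73a had 26 and 18 against 197820 and 145069. The 3 snoRNAs themselves lay 0.17 (Snord49a), 0.33 (Snord55) and 0.35 (Snord43) from their mean, so that these neighbours were as close to it as its own members.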

How the data were processed

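RNA of tumour-derived exosomes and primary tumour was measured in 2 libraries each; groups came from the labels. The deposited table holds, per the file headers, a whole-number count and an FPKM per gene. The authors' FPKM equal the count divided by annotated gene length and library total. TopHat2 2.0.9, Cufflinks 2.1.1, Cuffdiff and build GRCm38.p4 are named in the submitters' processing notes; the counting tool was not given in the sources used here, nor were the strand setting and the treatment of multiply mapped reads. Since Snord43 and Snord49a lie on the strand of their hosts, strand cannot tell reads of an unspliced host apart from those of the snoRNA in its intron. Per the labels' protocols, libraries came from adaptor ligation and gel excision, which set the RNA lengths seen.

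The count test was edgeR 4.0.16 under R 4.3.3 (quasi-likelihood, TMM, filterByExpr with minimum count 10 and total 15, group only, two-sided, Benjamini-Hochberg over 1442 genes, threshold 0.05); scripts were tested on simulated data. The exosome libraries had TMM factors of 2.41 and 2.93, the tumour libraries 0.388 and 0.365. IDs were matched to GENCODE M21 (46574 of 47069); those without a symbol held 0.00555% of exosome and 0.00208% of tumour counts. All 3 snoRNAs matched, the locus of Snord55 is not reported here, and sequences were compared with blastn 2.17.0. Intervals are exact Clopper-Pearson 95% and, like the floor of 3 counts, cover counting error only. Replicates differed by more than sampling noise (chi-square per degree of freedom 6.27 in exosomes, 31.8 in tumour) and were averaged; nothing says they came from separate animals, so p-values measure the spread between libraries. Box C/D genes were those with a Snord symbol.

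Members and lists were chosen with earlier results of these data known. Named genes were the 3 snoRNAs, the hosts of Snord43 and Snord49a and co-hosted small RNAs, up to 3 tested genes of highest mean per list, the 5 leading other box C/D genes of each group, ranks 4 and 5 of the tumour and the 3 nearest profiles. Alternatives were DESeq2 1.42.0, TMMwsp, library totals (all, without the 3 snoRNAs, without all Snord genes), limma 3.58.1 on log2(FPKM + 1) and log2(FPKM + 10), leaving out each library, blocking on replicate number, 2 other filters and other denominators. Near copies were sought to be summed and none was found.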

Additional observations from a re-analysis of the deposited data

How the results depend on the processing

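Depth limits the exosome values, which rest on 140 to 410 counts for each of the 3 snoRNAs and on at most 5 for each tested gene of the snoRNA machinery. Under every alternative run the 3 snoRNAs stayed lower in exosomes, but the size moved with the scaling and the filter; all values here are log2 differences, exosomes minus tumour. For Snord55 they were -10.12 with DESeq2, -9.56 with at least 10 counts in 2 libraries, -8.67 and -8.01 with library totals without all Snord genes and without the 3 snoRNAs, -7.21 with library totals and with limma on either pseudocount, and -11.19 with no filter. In the same order after DESeq2, Snord43 had -9.06, -8.20, -7.54, -6.74, -6.78 (both pseudocounts) and -10.68, and Snord49a -9.47, -8.60, -7.94, -7.14, -7.16 (both) and -11.10. Leaving out 1 library gave -10.10 to -9.94 for Snord55, -10.01 to -9.15 for Snord43 and -10.32 to -9.63 for Snord49a, where a lone library was assumed to vary like the others.

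Genes called higher in exosomes numbered 230, and 508, 730 and 920 with library totals without all Snord genes, without the 3 snoRNAs and in full, 494 with limma on log2(FPKM + 1), and 206 to 233 with 1 library left out. Genes called lower numbered 318, and 207 with library totals without the 3 snoRNAs, 166 with full library totals, 204 and 163 with limma on log2(FPKM + 1) and log2(FPKM + 10), 610 with no filter, and 309 to 324 with 1 library left out. Other box C/D genes called higher numbered 0, and 1 with library totals. The share of the 3 snoRNAs became 0.697% of summed FPKM in exosomes, and 31.5% of snoRNA gene counts in exosomes against 45.5% in tumour.

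The following changed sign. Rpl3 had 0.21, 0.87 and 1.67 with library totals without all Snord genes, without the 3 snoRNAs and in full, and 1.21 and 0.36 with limma on log2(FPKM + 1) and log2(FPKM + 10). Nop58 had 0.75, 1.40 and 2.19 under the same 3 totals, and Nop56 0.15 and 0.94 without the 3 snoRNAs and in full. Snord118 had 0.12 and 0.91 without the 3 snoRNAs and with full totals, and 0.93 and 0.93 with limma. Scarna3a had 0.024 with full totals and 0.038 and 0.036 with limma. Snora57 had -0.048 with no filter. The cause was not tested. Over 21 named genes, 250 values kept direction and call, 18 lost the call and 1 gained it.

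Deviations of same-numbered libraries from their group means correlated at -0.02 over 1442 genes. Over the 204 genes with at least 10 counts in every library they correlated at 0.04. With few exosome counts per gene this could not exclude a pairing, so whether replicate numbers pair the libraries is not known. With a replicate block, 244 genes were higher and 345 lower, and Snord55 stood at -10.01, Snord43 at -9.56 and Snord49a at -9.94; the Rpl3 call was lost (edgeR adjusted p = 0.0614).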
